A study of Homo sapiens with 24 samples.

Results

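TXNIP and its relatives ARRDC1, ARRDC2, ARRDC3 and ARRDC4 are the alpha-arrestin genes described here. ARRDC5, the remaining gene of the human family, was close to 0 in all libraries. The 5 genes were taken by name from a table of exon counts that lists 61533 genes, and all 5 were among the 23651 genes with enough reads to be tested. TXNIP was picked because earlier fits of these libraries had given it a larger 3 h response to dexamethasone in one receptor mutant line than in the other. The 4 ARRDC genes were added as its family, with earlier results of these data already known. For TXNIP, values that rest on the 0 h or 3 h libraries of the 2 mutant lines are therefore given as a description with no test.

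The cells were U2OS, a human osteosarcoma line, in 3 stable lines that each expressed the glucocorticoid receptor (GR) fused to HaloTag. The wt line carried the unchanged receptor, the SoF line carried K492A, a change that lowers the affinity of GR for RNA and for DNA, and the Ctrl line carried R470A, which lowers DNA affinity alone and served as the matched control. In every line the receptor came from an integrated plasmid with a constitutive CMV promoter, and each line was a sorted pool of cells, so that line and pool cannot be told apart. Each line was sampled after 1, 2 or 3 h in 100 nM dexamethasone, a synthetic glucocorticoid, or in 0.01% ethanol as the 0 h control, which gave 12 groups of 2 libraries and 24 libraries in all. The study's methods say that medium was replaced at treatment and do not say how long the 0 h cells were in ethanol. Time in dexamethasone and time in fresh medium therefore cannot be told apart. All cells received 200 µM 4-thiouridine for the last 1 h before harvest, and the labelled RNA was pulled down and sequenced (4sU-seq), so that the libraries hold mainly RNA made within that hour.

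Arrestins share a fold of stacked beta-sheets. The alpha-arrestins carry, beside this fold, short proline- and tyrosine-containing motifs that bind ubiquitin ligases of the NEDD4 family, and they act as adaptors that bring such ligases to membrane proteins. TXNIP binds thioredoxin and promotes the removal of the glucose transporter GLUT1 from the cell surface, and ARRDC4, its nearest relative in sequence, also restrains glucose uptake. Both are known targets of the sugar-sensing factors MLXIP (MondoA) and MLXIPL (ChREBP), which bind E-box sequences with their partner MLX. ARRDC1 recruits ESCRT proteins and drives budding of vesicles from the plasma membrane, and ARRDC3 acts in the trafficking of the beta-adrenergic receptor.

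To show what lies upstream of the members that the results turn on, the 250 bases before the RefSeq transcription start (GRCh38.p14) are given for 3 of them, TXNIP as the member whose response was set apart, ARRDC4 as its nearest relative and ARRDC2 as a member called higher in every line at 2 h and 3 h. For ARRDC2 the RefSeq start lies 7038 bases inside the gene as annotated for counting, so that its window is upstream of that start only. Letters run 5′ to 3′ on the strand of the gene, and capitals mark matches, on either strand, to CACGTG (the palindromic E-box), CACGAG (an E-box variant), CCAAT, which reads ATTGG where it lies on the other strand, and GTAAACA (a forkhead-type motif).
TXNIP (chr1:145996580-145996829, minus strand): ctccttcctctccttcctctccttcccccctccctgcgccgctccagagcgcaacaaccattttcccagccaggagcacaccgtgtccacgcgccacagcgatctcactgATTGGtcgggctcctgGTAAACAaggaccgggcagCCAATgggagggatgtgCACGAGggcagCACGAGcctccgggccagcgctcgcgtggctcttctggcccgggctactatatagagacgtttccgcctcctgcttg
ARRDC4 (chr15:97960453-97960702, plus strand): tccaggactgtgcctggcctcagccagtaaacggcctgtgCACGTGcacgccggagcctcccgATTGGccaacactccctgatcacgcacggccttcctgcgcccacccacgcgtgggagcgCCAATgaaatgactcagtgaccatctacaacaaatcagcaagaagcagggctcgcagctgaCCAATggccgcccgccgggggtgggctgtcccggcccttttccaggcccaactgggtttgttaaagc
ARRDC2 (chr19:18007920-18008169, plus strand): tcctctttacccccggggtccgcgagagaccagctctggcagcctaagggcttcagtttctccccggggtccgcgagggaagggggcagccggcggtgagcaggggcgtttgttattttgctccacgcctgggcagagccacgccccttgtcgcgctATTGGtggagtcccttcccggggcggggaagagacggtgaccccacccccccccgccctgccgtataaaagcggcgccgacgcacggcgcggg
TXNIP held 2 copies of CACGAG, at -88 to -83 and -77 to -72 from the start, beside 2 CCAAT matches and 1 GTAAACA match at -124 to -118. ARRDC4 held 1 CACGTG, at -210 to -205, and 3 CCAAT matches. ARRDC1, ARRDC2 and ARRDC3 held 1 CCAAT match each and none of the E-box forms. Over 34943 promoter windows of the same length, CACGAG was found in 5.58%, CACGTG in 6.32%, CCAAT in 32.04% and GTAAACA in 2.98%. The half-site of the GR element, TGTTCT, was in 12.42% of windows and in none of the 5 members' windows, which says only that these letters are not within this stretch.

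The 24 libraries held 8106036 to 15820806 reads assigned to genes, and levels are given as CPM, the reads of a gene scaled to a common library size, after TMM scaling of library sizes. Where libraries of 2 groups are said to lie apart or to overlap, the share of all genes that do so was not counted. By the study's methods, the replicates of a sample went through biotinylation and pulldown as a pair. Variation between pulldowns can therefore lie between groups, where no p-value measures it. The labels do not say whether the 2 libraries of a group came from separate cultures, so p-values measure the spread between these libraries only. That spread was widest at 0 h, where the chi-square statistic between the 2 libraries of a group was 23.8, 21.5 and 20.3 per degree of freedom in wt, SoF and Ctrl, against 6.42 to 19.3 in the treated groups. Of the osteoblast lineage markers, RUNX2 lay between 51.5 and 158 CPM, COL1A1 between 250 and 1008 CPM and SPARC between 207 and 382 CPM in all libraries, while SP7, IBSP, BGLAP and COL1A2 were at or near 0. At 3 h RUNX2 fell in all lines (log2 changes of -0.71, -0.65 and -0.66 in wt, SoF and Ctrl), ALPL, at 8.07 to 43.99 CPM, rose in all lines (by 0.96, 1.27 and 1.49), and COL1A1 rose in SoF and Ctrl (by 0.83 and 1.14). Markers of other cell types were low, with PTPRC (blood cells) at most 2.17 CPM, CD3E (T cells) at most 0.101 CPM, PECAM1 and CDH5 (endothelium) at most 0.596 and 0.802 CPM, and EPCAM and CDH1 (epithelium) at most 3.60 and 8.09 CPM. Of the 3 that could be tested, CDH1 fell in all lines (log2 changes of -2.04, -2.41 and -1.78, edgeR adjusted p = 0.00329, 0.000784 and 0.00591). The part of these marker changes in the members' values was not tested. In bulk RNA such as this, fewer cells with a transcript and less of it per cell cannot be told apart.

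TXNIP (ENSG00000265972.6, chr1:145992435-145996579, minus strand, GRCh38) was low in ethanol and rose within hours of dexamethasone in the wt line. Its wt level was 8.49 and 20.4 CPM in the 2 libraries at 0 h, 25.5 and 28.1 CPM at 1 h, 34.5 and 53.1 CPM at 2 h, and 33.6 and 49.6 CPM at 3 h. Every treated wt library was above both ethanol libraries, and the latter differed more than 2-fold from each other. In the edgeR quasi-likelihood test with Benjamini-Hochberg adjustment, the wt log2 change from 0 h was 0.90 ± 0.29 (SE) at 1 h (adjusted p = 0.314), 1.61 ± 0.29 at 2 h (adjusted p = 0.00247) and 1.54 ± 0.29 at 3 h (adjusted p = 0.00129). Without wt 0 h replicate 1 the 1 h value was 0.37, and without wt 0 h replicate 2 it was 1.67 and called. The 2 h call was lost without wt 2 h replicate 2, and the value ran from 1.07 to 2.36 when single libraries were left out, while the 3 h call was kept in all 29 alternatives (1.01 to 2.31 with 1 library left out). All genes tested were called at a rate of 0.156% for wt at 1 h, 4.6% at 2 h and 10.7% at 3 h.

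In the SoF line, TXNIP was at 10.6 and 14.6 CPM at 0 h, 35.3 and 50.4 CPM at 1 h, 74.3 and 63.0 CPM at 2 h, and 70.5 and 66.8 CPM at 3 h. The treated SoF libraries stood above their ethanol libraries at each time, and the 2 h and 3 h libraries overlapped. The log2 change from 0 h in SoF, a description with no test, was 1.77 ± 0.30 after 1 h, 2.45 ± 0.30 after 2 h and 2.45 ± 0.30 after 3 h. The Ctrl line started at 20.5 and 16.1 CPM, reached 38.3 and 33.4 CPM at 1 h, and stood at 29.8 and 29.1 CPM at 2 h and 11.96 and 16.6 CPM at 3 h. The Ctrl libraries thus lay above those of ethanol at 1 h and 2 h and overlapped them at 3 h. Its log2 change from 0 h, again untested, was 0.96 ± 0.29, 0.67 ± 0.29 and -0.37 ± 0.30 at 1, 2 and 3 h.

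**Figure D1:**
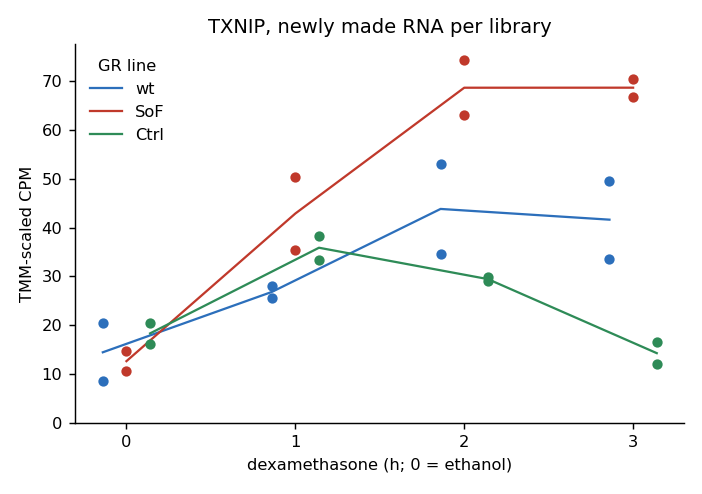
TXNIP level (TMM-scaled CPM, linear axis) in each of the 24 libraries against hours in dexamethasone, with 0 h in ethanol; points are libraries and lines join the means of 2 libraries in the wt, SoF and Ctrl lines. At 1 h the SoF and Ctrl libraries overlap, at 2 h the SoF libraries (74.3 and 63.0 CPM) lie above the Ctrl libraries (29.8 and 29.1 CPM), and at 3 h the Ctrl libraries (11.96 and 16.6 CPM) overlap those of ethanol (20.5 and 16.1 CPM).

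The 3 h response that TXNIP was chosen for differed by 2.82 ± 0.43 (log2, SE) between SoF and Ctrl, by 0.92 ± 0.41 between SoF and wt, and by -1.91 ± 0.42 between Ctrl and wt. The value for SoF against wt ran from 0.15 without wt 0 h replicate 2 to 1.45 without wt 0 h replicate 1. These are values of the contrast behind the choice. They share control libraries with each other, and across all genes the called share was 0.0127% for SoF against Ctrl, 0% for SoF against wt and 0% for Ctrl against wt.

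The 1 h and 2 h libraries are not in the 3 h against 0 h contrast, and the lines were tested against each other there. They come from the same cell pools as the 3 h libraries, and members were chosen with earlier results of these data known. These tests are therefore not independent of that choice. At 1 h the SoF and Ctrl levels of TXNIP overlapped, with a log2 difference of 0.26 ± 0.28 (SoF minus Ctrl, edgeR adjusted p = 0.775, against 0.44% of all genes called). SoF minus wt was 0.68 ± 0.28 (edgeR adjusted p = 0.326, 0.228% of all genes called) and Ctrl minus wt was 0.42 ± 0.29 (edgeR adjusted p = 0.924, 0.169% called). At 2 h the SoF libraries were apart from and above those of Ctrl, at a log2 difference of 1.22 ± 0.28 that did not pass the threshold of 0.05 (edgeR adjusted p = 0.0659, 0.359% of all genes called). This difference passed in 8 of 29 alternatives, and the value stayed between 1.097 and 1.34 with single libraries left out. For SoF minus wt at 2 h the value was 0.65 ± 0.28 (edgeR adjusted p = 0.285, 0.275% called), and for Ctrl minus wt it was -0.57 ± 0.28 (edgeR adjusted p = 0.422, 0.613% called). The smaller differences moved with single libraries. SoF minus Ctrl at 1 h ran from -0.03 (without SoF 1 h replicate 2) to 0.48 (without SoF 1 h replicate 1) and was 0.13 without Ctrl 1 h replicate 2, and SoF minus wt at 1 h was 0.39 without SoF 1 h replicate 2. At 2 h SoF minus wt was 0.38 without wt 2 h replicate 1 and 1.00 without wt 2 h replicate 2, and Ctrl minus wt was -0.23 without the latter.

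From 1 h to 2 h TXNIP changed by 0.71 ± 0.28 (log2) in wt cells, 0.68 ± 0.28 in SoF and -0.29 ± 0.29 in Ctrl, with edgeR adjusted p of 0.0948, 0.0899 and 0.556. None of these steps passed the threshold, and the wt step was 0.35 without wt 2 h replicate 2. Over the same step 13.5% of all genes were called in wt cells, 18.3% in SoF and 10.6% in Ctrl. The step in SoF minus the step in Ctrl was 0.97 ± 0.40 (edgeR adjusted p = 1). NR3C1, the gene of the receptor itself, whose reads here come from the plasmid and the endogenous gene together, also differed between the lines. Its mean level at 0 h was 688 ± 192 CPM (SD, n = 2) in wt, 2630 ± 286 CPM in SoF and 3317 ± 162 CPM in Ctrl. In the same order the mean was 1453, 5801 and 6625 CPM at 1 h and 592, 1863 and 2374 CPM at 2 h. At 3 h it was below 0 h in every line, with log2 changes of -0.97, -1.23 and -0.97 (edgeR adjusted p = 0.00347, 0.000264 and 0.00317). These are levels of labelled RNA. Receptor protein is not in these data, and the study's methods state that sorted fractions were picked for like nuclear receptor protein in the 3 lines. The part of receptor level in the TXNIP values was not tested.

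ARRDC4 (ENSG00000140450.9, chr15:97960703-97973833, plus strand), the relative that also restrains glucose uptake, was the least abundant member and was not called in any contrast. Its 24 values ran from 4.68 to 10.3 CPM, on 52 to 119 reads. In wt it was at 6.34 and 5.92 CPM at 0 h and 7.15 and 6.50 CPM at 3 h. In SoF it was at 6.71 and 8.12 CPM at 0 h and 6.46 and 7.65 CPM at 3 h. The Ctrl libraries were at 7.999 and 6.59 CPM at 0 h and at 5.43 and 4.68 CPM at 3 h, so that only there did the 3 h libraries lie below both ethanol libraries. Its 3 h log2 change was 0.15 ± 0.25 in wt cells, -0.07 ± 0.25 in SoF and -0.54 ± 0.26 in Ctrl (edgeR adjusted p = 0.760, 0.885 and 0.182).

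ARRDC2 (ENSG00000105643.11, chr19:18001132-18014102, plus strand), an adaptor whose cargo is less well described, rose in all 3 lines between 1 h and 2 h. Its wt level was 19.9 and 16.2 CPM at 0 h, 14.0 and 23.4 CPM at 1 h, 48.8 and 59.8 CPM at 2 h, and 56.4 and 68.4 CPM at 3 h. In SoF the values were 18.7 and 13.9, then 21.4 and 16.3, then 79.5 and 60.9, and finally 74.1 and 70.9 CPM at 0, 1, 2 and 3 h. In Ctrl they were 20.2 and 13.3, then 24.7 and 17.1, then 59.7 and 62.0, and finally 42.8 and 49.1 CPM. The 0 h and 1 h libraries overlapped in each line, and every 2 h and 3 h library lay above all of them.

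The 2 h log2 change of ARRDC2 from ethanol was 1.58 ± 0.24 in wt cells, 2.10 ± 0.24 in SoF and 1.84 ± 0.24 in Ctrl (edgeR adjusted p = 0.000354, 1.134e-05 and 5.092e-05). At 3 h it was 1.79 ± 0.24, 2.14 ± 0.24 and 1.43 ± 0.24 (edgeR adjusted p = 3.805e-05, 2.898e-06 and 0.000391). From 1 h to 2 h alone the change was 1.53, 1.90 and 1.54, each called by edgeR (adjusted p = 0.000489, 3.083e-05 and 0.000277). These 9 calls were kept in every alternative tried. At 1 h the change was 0.05 in wt cells, 0.20 in SoF and 0.30 in Ctrl and none was called. The 1 h libraries of TXNIP, by contrast, lay above those of ethanol in each line. Its 1 h change was not called in wt and not tested in SoF or Ctrl, and how many genes separate likewise was not counted.

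ARRDC1 (ENSG00000197070.14, chr9:137605685-137615360, plus strand), the vesicle-budding member, rose by a smaller amount and from a lower level. At 0 h it was at 8.22 and 8.77 CPM in wt, 6.71 and 7.02 CPM in SoF, and 8.36 and 4.71 CPM in Ctrl. At 2 h it was at 18.9 and 23.2 CPM in wt, 22.9 and 11.9 CPM in SoF, and 17.7 and 13.8 CPM in Ctrl. At 3 h it was at 17.0 and 16.2, 18.2 and 15.5, and 14.1 and 12.6 CPM in the same lines. The treated libraries lay above those of ethanol at every time in every line, although the 1 h changes of 0.77, 0.64 and 0.91 (log2 in wt, SoF and Ctrl) were not called. How many genes separate likewise was not counted.

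The 2 h change of ARRDC1 was 1.30 ± 0.27 in wt cells, 1.35 ± 0.29 in SoF and 1.23 ± 0.29 in Ctrl (edgeR adjusted p = 0.00719, 0.00534 and 0.0101), and the 3 h change was 0.97 ± 0.27, 1.30 ± 0.29 and 0.99 ± 0.29 (edgeR adjusted p = 0.0256, 0.00275 and 0.0246). These rest on 40 to 283 reads per library. The 2 h call was lost without wt 0 h replicate 1, wt 0 h replicate 2 or wt 2 h replicate 2 in wt, without SoF 0 h replicate 2 or SoF 2 h replicate 1 in SoF (0.81 to 1.75 over all libraries left out), and without Ctrl 0 h replicate 2 or Ctrl 2 h replicate 1 in Ctrl. At 3 h the wt call was lost without any 1 of the 4 wt libraries at 0 h and 3 h, and the Ctrl call without Ctrl 0 h replicate 2 or either Ctrl 3 h library.

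**Figure D2:**
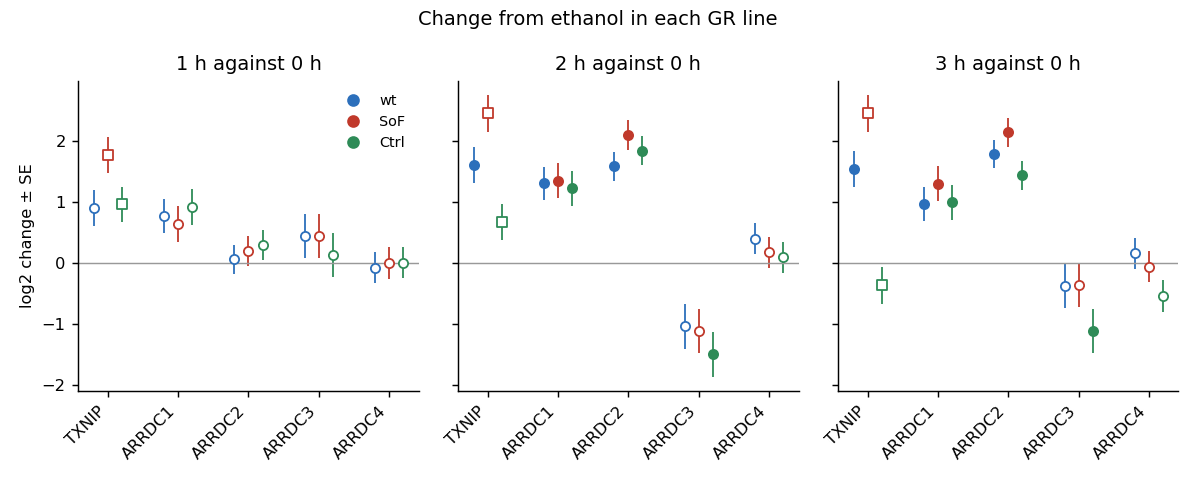
Log2 change from 0 h (points) with its standard error (bars) at 1, 2 and 3 h for the 5 genes in the wt, SoF and Ctrl lines; filled circles passed an edgeR adjusted p of 0.05, open circles did not, and open squares were not tested. ARRDC2 is filled in all lines at 2 h and 3 h, and ARRDC4 in none. The TXNIP values at 3 h (2.45 in SoF and -0.37 in Ctrl) are those of the contrast it was chosen for, so their distance is no test.

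ARRDC3 (ENSG00000113369.9, chr5:91368631-91383317, minus strand), the receptor-trafficking member, moved the other way and fell between 1 h and 2 h in all 3 lines. At 1 h it was at 284 and 131 CPM in wt, 226 and 203 CPM in SoF, and 357 and 215 CPM in Ctrl. At 2 h it was at 67.7 and 80.6 CPM in wt, 77.2 and 69.1 CPM in SoF, and 119 and 66.2 CPM in Ctrl. No 2 h library reached the level of any 1 h library. The log2 change from 1 h to 2 h was -1.49 ± 0.37 in wt cells, -1.55 ± 0.37 in SoF and -1.63 ± 0.37 in Ctrl (edgeR adjusted p = 0.0120, 0.00656 and 0.00666). The call was lost without wt 1 h replicate 1 or either wt 2 h library in wt (-1.94 to -0.83), without SoF 2 h replicate 1 in SoF, and without Ctrl 1 h replicate 1 or Ctrl 2 h replicate 2 in Ctrl.

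Against ethanol the fall of ARRDC3 at 2 h was smaller than from 1 h in each line, at a like SE. The ethanol libraries were at 81.8 and 224 CPM in wt, 145 and 173 CPM in SoF, and 319.7 and 202 CPM in Ctrl. The 2 h change was -1.04 ± 0.37 in wt cells, -1.12 ± 0.37 in SoF and -1.50 ± 0.37 in Ctrl (edgeR adjusted p = 0.109, 0.0778 and 0.0135), so that the call was made in Ctrl alone and it was lost without Ctrl 0 h replicate 1 or Ctrl 2 h replicate 2. The wt value ran from -1.63 to -0.15 when single libraries were left out, the latter without wt 0 h replicate 2. By 3 h the level stood at 130.3 and 103 CPM in wt, 129 and 117 CPM in SoF, and 129.6 and 109.7 CPM in Ctrl, and the change from ethanol was -0.39 ± 0.36, -0.37 ± 0.36 and -1.12 ± 0.36 (edgeR adjusted p = 0.553, 0.512 and 0.0415). The Ctrl call at 3 h was lost in 7 of 29 alternatives, with DESeq2 and without each of Ctrl 0 h, Ctrl 3 h and SoF 3 h libraries (-1.42 to -0.74).

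**Figure D3:**
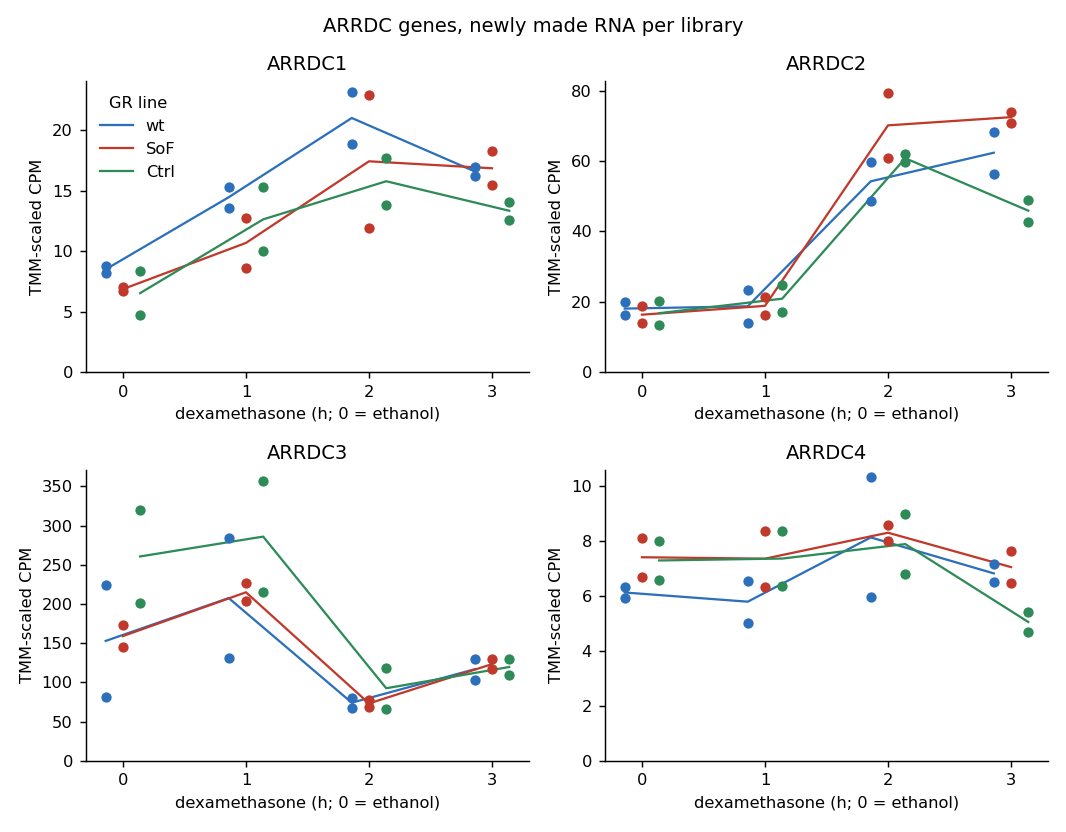
Levels of ARRDC1, ARRDC2, ARRDC3 and ARRDC4 (TMM-scaled CPM, linear axes of different range) in each of the 24 libraries against hours in dexamethasone, with lines through the means of 2 libraries. ARRDC2 steps up and ARRDC3 steps down between 1 h and 2 h in each line, while ARRDC4 stays between 4.68 and 10.3 CPM.

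Over the 4 ARRDC genes, edgeR called 0 at 1 h in each line (1 in each at an unadjusted p under 0.05, 0 with DESeq2), where the share of all genes called was 0.156% in wt cells, 0.165% in SoF and 0.0465% in Ctrl. At 2 h it called 2 in wt cells, 2 in SoF and 3 in Ctrl, against 4.6%, 5.68% and 7.95% of all genes, and at 3 h again 2, 2 and 3, against 10.7%, 19.3% and 14.2% of all genes. From 1 h to 2 h it called 2 in each line, against 13.5%, 18.3% and 10.6% of all genes in wt, SoF and Ctrl. For the difference in 3 h response between lines, edgeR and DESeq2 each called 0 of the 4 in all 3 pairs of lines, with 1 gene at an unadjusted p under 0.05 for SoF against Ctrl (ARRDC2, 0.71 ± 0.34) and 0 for the other pairs. Between the 2 mutant lines, the response at 3 h differed by 0.31 for ARRDC1, 0.76 for ARRDC3 and 0.47 for ARRDC4 (edgeR adjusted p = 1 for each). At 1 h and at 2 h, 0 of the 4 differed between any pair of lines, also with DESeq2, and 0 had an unadjusted p under 0.05. At 0 h and 3 h edgeR and DESeq2 also called 0, with 1 gene at an unadjusted p under 0.05 for Ctrl minus wt at 0 h (ARRDC3, 0.77 ± 0.36) and 1 for SoF minus Ctrl at 3 h (ARRDC2, 0.66 ± 0.23, edgeR adjusted p = 0.286), where the ARRDC2 libraries of SoF were above those of Ctrl.

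When all 8 libraries of a line entered one fit without time, edgeR called 3.61% of 21122 genes for SoF against Ctrl, 8.02% for SoF against wt and 4.77% for Ctrl against wt, but 0 of the 4 ARRDC genes in each (0 at an unadjusted p under 0.05, and 0 with DESeq2). The values for ARRDC3 were -0.41 ± 0.34, 0.05 ± 0.34 and 0.46 ± 0.34 in that order. TXNIP, given without a test, was 0.98 ± 0.36, 0.62 ± 0.36 and -0.37 ± 0.36.

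To compare the members with each other, CPM was divided by the length of each gene's merged exons. ARRDC3 had the highest level per kb in 11 of 12 groups, with group means between 14.7 and 57.4 CPM per kb. In wt at 2 h its mean of 14.9 ± 1.83 and that of TXNIP, 12.2 ± 3.64 CPM per kb, overlapped within their SD. The exception was SoF at 2 h, where TXNIP stood at 19.0 ± 2.22 (SD, n = 2), ARRDC2 at 15.1 ± 2.84 and ARRDC3 at 14.7 ± 1.15 CPM per kb, and the last 2 overlapped within their SD. TXNIP group means ran from 3.50 to 19.0, those of ARRDC2 from 3.52 to 15.6 and those of ARRDC1 from 1.72 to 5.55 CPM per kb. ARRDC4 was lowest in 10 groups, between 1.24 and 2.05 CPM per kb, and ARRDC1 in the other 2, SoF and Ctrl at 0 h, where the means of these 2 genes lay within 1 SD of each other. At 0 h TXNIP and ARRDC2 did not differ beyond their spread in wt (4.01 ± 2.33 and 3.89 ± 0.557 CPM per kb) or in SoF (3.50 ± 0.789 and 3.52 ± 0.730 CPM per kb).

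**Figure D4:**
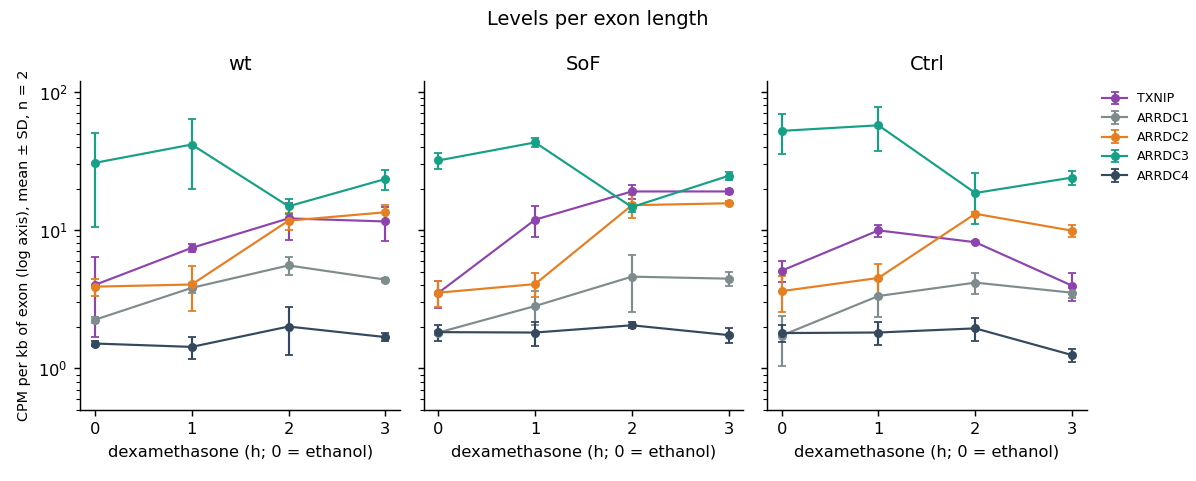
Mean level per kb of merged exon (log axis, CPM per kb, bars are SD of 2 libraries) of the 5 genes against hours in dexamethasone in the wt, SoF and Ctrl lines. ARRDC3 is highest except in SoF at 2 h, and ARRDC4 is lowest except in SoF and Ctrl at 0 h.

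Across the 12 group means of log2 CPM, the members did not share one pattern. The Pearson r, a description over groups of which each line's share a cell pool, was 0.81 between ARRDC1 and ARRDC2, -0.81 between ARRDC2 and ARRDC3, and -0.65 between ARRDC1 and ARRDC3. For TXNIP it was 0.71 with ARRDC1, 0.62 with ARRDC2, 0.53 with ARRDC4 and -0.32 with ARRDC3. Among all genes tested, those most like TXNIP by this measure were ENSG00000228302 (0.93), AQP7P1 (0.93), EXTL1 (0.91), ZDHHC8BP (0.91) and PROX1 (0.91). PROX1, a homeobox transcription factor gene, had a mean of 16.2 CPM, and the other 4 had means of 0.464 to 1.76 CPM and so rest on few reads. Most like ARRDC1 were GMPR (0.97) and the metallothionein genes MT2A (0.97) and MT1E (0.96). Most like ARRDC2 were RGCC (0.99), THBS3-AS1 (0.98) and ELK3 (0.98), and most like ARRDC3 were POLD3 (0.98), which encodes a subunit of DNA polymerase delta, TBC1D31 (0.97) and PTPN13 (0.97). For ARRDC4 the values were lower, with ENSG00000240710 at 0.91, ENSG00000275092 at 0.89 and CD69 at 0.85.

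Of the 10 nearest tested genes on either side of the members, edgeR called 2 in wt, 3 in SoF and 1 in Ctrl at 3 h, beside 10.7%, 19.3% and 14.2% of all genes. POLR3GL, 13587 bp from TXNIP on the other strand, lay between 2.72 and 5.71 CPM and its 3 h change was not called in any line (-0.58, 0.07 and -0.25 in wt, SoF and Ctrl). On the other side, 53862 bp away, ENSG00000287190 fell in wt by 1.04 (edgeR adjusted p = 0.0397) and was at -0.80 in SoF and -0.54 in Ctrl, uncalled. LUCAT1, a long noncoding RNA gene 54084 bp from ARRDC3 on the same strand, fell in all 3 lines by 0.89, 1.47 and 1.02 (edgeR adjusted p = 0.00270, 1.083e-05 and 0.000694 at 3 h). ZMYND19, 15173 bp from ARRDC1, rose by 0.73 in SoF (edgeR adjusted p = 0.0262) and was at 0.57 in wt and 0.54 in Ctrl, uncalled. LINC02253, 528609 bp from ARRDC4, fell by 2.35 in SoF (edgeR adjusted p = 0.00232) from a low level of at most 4.16 CPM. KCNN1, 1047 bp from ARRDC2, stayed at 0.602 to 2.36 CPM and was not called. The antisense genes ARRDC1-AS1, at 41.5 to 82.8 CPM, and ARRDC3-AS1, at 3.19 to 6.32 CPM, overlap their partners and were not called at 3 h in any line, and reads in the overlap are uncertain where strand use in counting was incomplete.

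The remaining genes with an arrestin fold included some that rose in every line. ARRDC5 was at 0 in 16 of 24 libraries and at most 0.154 CPM, and the visual arrestins SAG and ARR3 reached at most 0.270 and 0.104 CPM, so that 6 of 9 listed genes could be tested. At 3 h, 2 of these 6 rose in wt cells, 2 in SoF and 3 in Ctrl, and none fell (list medians 0.09, 0.30 and 0.46 beside -0.03, -0.03 and -0.02 over all genes, of which 10.7%, 19.3% and 14.2% were called). ARRB1, which encodes beta-arrestin 1, rose by 1.29 ± 0.29, 1.53 ± 0.30 and 1.65 ± 0.30 in wt, SoF and Ctrl (edgeR adjusted p = 0.00542, 0.000943 and 0.000756). VPS26B, a retromer subunit, rose by 0.64, 0.81 and 0.72 (edgeR adjusted p = 0.00944, 0.000907 and 0.00375). ARRB2, for beta-arrestin 2, rose in Ctrl by 0.61 (edgeR adjusted p = 0.0338) and was at 0.01 in wt and 0.32 in SoF, uncalled.

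Of 9 ubiquitin ligase genes of the NEDD4 family, the enzymes that alpha-arrestins recruit, 2 rose in wt, 1 rose and 1 fell in SoF, and 1 rose in Ctrl at 3 h, with list medians of 0.09, 0.05 and -0.16. Over all genes 10.7%, 19.3% and 14.2% were called, so that the shares in SoF and Ctrl lay near the background. NEDD4L fell by 0.61 ± 0.14 in SoF (edgeR adjusted p = 0.00343) and was at -0.14 in wt and -0.32 in Ctrl, uncalled. SMURF1 rose by 0.46 in wt and 0.47 in SoF (edgeR adjusted p = 0.0340 and 0.0197) and SMURF2 by 0.57 in wt (edgeR adjusted p = 0.0247). Of 7 ESCRT genes, whose products ARRDC1 and ubiquitinated cargo engage, 1 rose in Ctrl, HGS by 0.61 ± 0.18 (edgeR adjusted p = 0.0213), and edgeR called 0 in wt and 0 in SoF (0 and 3 at an unadjusted p under 0.05), beside the same shares of all genes.

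The thioredoxin system holds the binding partner of TXNIP and the enzymes that reduce it. At 3 h, 1 of its 12 genes rose and 1 fell in wt, 3 rose and 1 fell in SoF, and 2 rose in Ctrl (medians 0.11, 0.27 and 0.19), beside 10.7%, 19.3% and 14.2% of all genes. PRDX6, a peroxiredoxin, rose by 0.53, 0.76 and 0.45 in the 3 lines (edgeR adjusted p = 0.0107, 0.000355 and 0.0245). TXNRD2, the mitochondrial thioredoxin reductase, rose in Ctrl by 0.88 ± 0.18 (edgeR adjusted p = 0.00199), and SRXN1, sulfiredoxin, in SoF by 0.81 ± 0.22 (edgeR adjusted p = 0.0114).

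Among 9 tested of 10 listed genes of glucose sensing and uptake, 3 rose and 1 fell in wt, 4 rose and 2 fell in SoF, and 3 rose and 2 fell in Ctrl at 3 h (medians 0.54, 0.44 and 0.01), beside 10.7%, 19.3% and 14.2% of all genes. MLXIP, the sugar-sensing factor known to act on TXNIP and ARRDC4, rose by 0.94 ± 0.19, 1.37 ± 0.19 and 1.11 ± 0.19 in wt, SoF and Ctrl (edgeR adjusted p = 0.00218, 3.193e-05 and 0.000476). Its relative MLXIPL was too low to test, at 0 to 0.161 CPM in the group means at 0 h and 3 h. SLC2A1, for the transporter GLUT1, fell by 0.98 ± 0.18, 0.80 ± 0.18 and 1.22 ± 0.18 (edgeR adjusted p = 0.000877, 0.00307 and 0.000120). SLC2A4, for GLUT4, rose by 1.59 ± 0.26, 1.79 ± 0.27 and 0.87 ± 0.29 (edgeR adjusted p = 0.000398, 6.33e-05 and 0.0473).

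**Figure D5:**
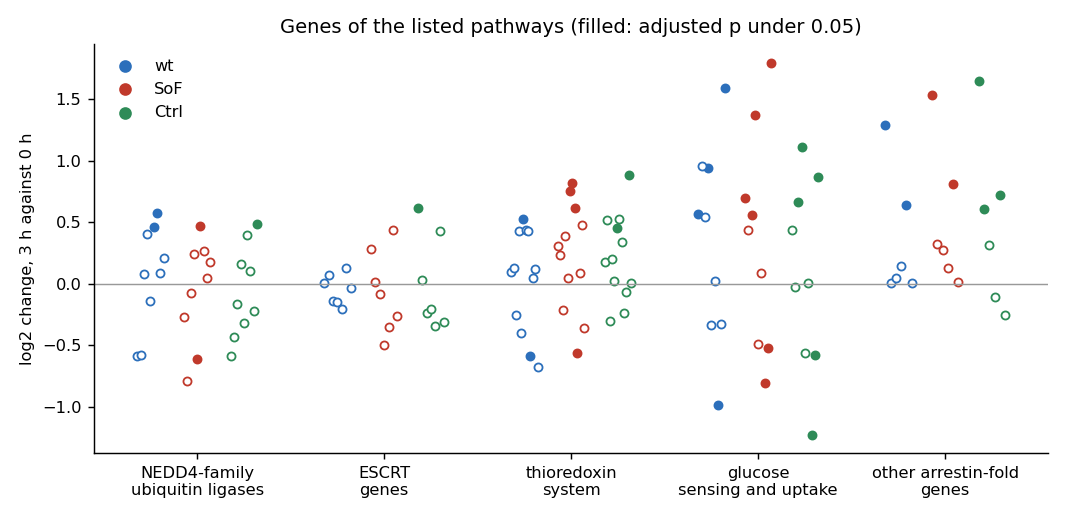
Log2 change at 3 h against 0 h (vertical axis) of each tested gene in 5 lists of genes that act with alpha-arrestins or share their fold, in the wt, SoF and Ctrl lines; filled points passed an edgeR adjusted p of 0.05. The glucose list holds 4 of 9 called genes in wt, 6 of 9 in SoF and 5 of 9 in Ctrl and the ESCRT list 0, 0 and 1 of 7, where 10.7%, 19.3% and 14.2% of all genes were called.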

How the data were processed

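The authors trimmed reads with Trim Galore 0.6.6, aligned them to hg38 with STAR 2.7.3a, removed duplicates by molecular identifier with UMI-tools 1.1.2 and counted them over exons of GENCODE release 39 with featureCounts, as the study's methods and the submitters' processing notes say. The deposited table holds whole-number counts per gene and library, not normalized, and its title calls the counting stranded. Gene names, exon lengths and neighbours were taken from GENCODE release 44, and promoter windows from RefSeq.

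Groups followed the labels. Genes were kept by filterByExpr (minimum count 10, minimum total 15), scaled by TMM and fitted with the quasi-likelihood test of edgeR 4.0.16 in R 4.3.3 over 12 groups of 2 libraries, or over 3 lines with time left out, with Benjamini-Hochberg adjustment over all tested genes and a threshold of 0.05. SE is the standard error of the fitted log2 change. The alternatives were median-of-ratios factors, no filter, DESeq2 1.42.0, a replicate block, fewer lines in the fit, and each library left out. A log2 CPM with a prior count of 2 gave the likeness between genes.

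Members and lists were chosen with earlier results of these data known. Named are all 5 members, in each list up to 3 genes called at 3 h in any line by smallest p, markers and receptor by range, the 5 genes most like TXNIP and 3 most like each other member, and their neighbours; ARRDC5, SAG, ARR3 and MLXIPL were named after their levels were seen. Counting error is included in the spread between libraries. On simulated counts for the wt 3 h comparison (22822 genes), 42.86% of 98 genes changed by 1 (log2) and 81.44% of 97 changed by 2 were recovered. Far fewer genes were changed in the simulation than the 10.7% called in the real comparison. Recovery at an adjusted p depends on that number, so these shares need not carry over.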

Additional observations from a re-analysis of the deposited data

Results flagged for a closer look

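For ARRDC4 the 3 h libraries lay on opposite sides of ethanol in wt and Ctrl, although neither change passed the threshold. Both wt libraries at 3 h were above both wt libraries in ethanol (log2 change 0.15), both Ctrl libraries were below theirs (-0.54), and the difference of Ctrl minus wt was -0.69. The fitted difference had a standard error of 0.36 and did not pass the threshold (edgeR adjusted p = 0.982). In wt the nearest libraries were at 6.34 CPM (0 h, 94 reads) and 6.50 CPM (3 h, 93 reads). How many genes separate likewise was not counted.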

How the results depend on the processing

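Over 28 or 29 alternatives per result (24 of them leaving out 1 library), no value of a member that was called reversed. Of 4900 values of single members, 4678 stayed the same. For tested values this meant the same direction and side of the threshold. For untested TXNIP values it meant lying within 1 SE of the main value, whatever the direction. A library left alone in its group was assumed to vary like the other groups. Among the 4 ARRDC genes, the number called lower changed from 0 to 1 for wt 2 h and SoF 2 h against 0 h and for SoF minus Ctrl at 0 h with no filter on low counts, and SoF 2 h also with only that line in the fit. The number called higher changed with no filter from 0 to 1 for Ctrl minus wt at 0 h, SoF minus Ctrl at 3 h, and the 3 h against 2 h steps of wt and SoF, and from 1 to 2 for SoF 2 h against 1 h. DESeq2 lowered the number called lower in Ctrl at 3 h from 1 to 0. With single libraries left out, the number called higher ranged from 1 to 2 at 2 h in wt, SoF and Ctrl, at 3 h in wt and Ctrl, and for SoF 2 h against 1 h, and from 0 to 1 for Ctrl minus wt at 0 h. The number called lower ranged from 0 to 1 at 2 h in wt, SoF and Ctrl, at 3 h in Ctrl, and for 2 h against 1 h in all lines. The cause was not tested.

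The calls of TXNIP gained were wt at 1 h (no filter, or without wt 0 h replicate 2), SoF minus Ctrl at 2 h (no filter, DESeq2, the replicate block, only those 2 lines, and without any 1 of the wt or SoF 0 h libraries), SoF minus wt at 2 h (no filter) and the 2 h against 1 h steps of wt and SoF (no filter, or without either wt 0 h library, and in SoF the replicate block).

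The labels number the libraries of each group 1 and 2, and the deviations of same-numbered libraries correlated at -0.22 to 0.57 over 66 pairs of groups, above 0.1 in 21. Between the 0 h groups the values were 0.40 (wt and SoF), 0.39 (wt and Ctrl) and 0.57 (SoF and Ctrl). SoF at 0 h gave 0.37 with SoF at 1 h and 0.43 with SoF at 2 h. Most pairs were at or below 0.1, so the main fit did not take the numbers to pair libraries. With the replicate block, the TXNIP change in wt at 1 h was 0.93 and the count of all genes called there was 59 in place of 37. In wt at 2 h the block raised that count from 1089 to 1433, and TXNIP passed for SoF minus Ctrl at 2 h.

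Over all genes, no filter raised the count called in wt at 1 h from 37 to 516 and DESeq2 to 105, and for SoF minus Ctrl at 2 h no filter raised it from 85 to 240. An additive time term raised the count for SoF minus Ctrl over all times from 763 to 2814. Levels per kb by plain library totals were within the SD of the scaled values in 57 of 60 cases (ratio 0.911 to 1.06). Depth limits ARRDC1 and ARRDC4 most, with 40 to 283 and 52 to 119 reads per library.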
